A study of Mus musculus with 6 samples.

Results

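The Tob and Btg genes encode small antiproliferative proteins, and 7 genes were examined: Tob1, Tob2, Btg1, Btg2 and Btg3, together with Cnot7 and Cnot8, which encode the deadenylases that these proteins bind. They were taken by symbol from the 24376 gene IDs of each deposited table, and all 7 had an ID. The family was selected on measured values: in these same libraries the expected counts of Tob1 and Btg2 were already known to be lower after Samd14 knockdown. The difference between the groups is therefore given for the 7 genes as a description, and it supports nothing beyond itself.

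RNA was sequenced from 6 libraries of C57BL/6 mouse fetal liver at E14.5. Blood progenitors were enriched with a commercial kit, infected with a retrovirus directly after isolation and kept in culture for 3 days, and cells without the erythroid surface proteins CD71 and Ter119 were then collected for RNA. Both groups share strain, stage, infection and culture. In 3 libraries the retrovirus carried a control short hairpin RNA (shRNA), whose target is not given in the sources used here, and in 3 libraries it carried an shRNA against Samd14 (shSamd14). Whether replicates were separate animals or separate cultures is not stated in the labels, so a p-value here reflects just the spread among these libraries, which may be technical. The labels name a single shSamd14 without its sequence.

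Proteins of the Tob and Btg family share an amino-terminal domain that binds CNOT7 or CNOT8. These 2 closely related nucleases belong to the CCR4-NOT complex, which shortens the poly(A) tail of mRNAs and so starts their decay. Tob proteins also bind the poly(A)-binding protein PABPC1 and can bring the deadenylase to a tail, and RNA-binding proteins can recruit Tob or CCR4-NOT to chosen mRNAs. Raised levels of the family slow entry into S phase in many cell types, and in blood Tob1, Btg1 and Btg2 are known for holding lymphocytes in a resting state.

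Promoters are shown for the member with the largest decrease, Tob1, and for the pair Btg2 and Btg1, whose members differed in whether the test called them. Each sequence is the 250 bases before the RefSeq start site (GRCm38.p6), read on the strand of the gene, with matches to the searched motifs in capitals. Tob1 is chr11:94211204-94211453 on the plus strand, Btg2 is chr1:134079156-134079405 on the minus strand and Btg1 is chr10:96616751-96617000 on the plus strand.
Tob1: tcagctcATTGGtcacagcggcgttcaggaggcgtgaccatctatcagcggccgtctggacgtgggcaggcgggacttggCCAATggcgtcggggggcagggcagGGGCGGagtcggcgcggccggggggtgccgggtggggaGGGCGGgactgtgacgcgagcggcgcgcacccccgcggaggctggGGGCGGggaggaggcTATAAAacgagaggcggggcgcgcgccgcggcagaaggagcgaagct
Btg2: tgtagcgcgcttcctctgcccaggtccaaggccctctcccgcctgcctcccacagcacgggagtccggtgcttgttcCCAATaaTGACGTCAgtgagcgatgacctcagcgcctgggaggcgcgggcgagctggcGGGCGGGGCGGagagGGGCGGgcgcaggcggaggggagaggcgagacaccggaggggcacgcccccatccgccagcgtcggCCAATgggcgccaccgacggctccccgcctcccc
Btg1: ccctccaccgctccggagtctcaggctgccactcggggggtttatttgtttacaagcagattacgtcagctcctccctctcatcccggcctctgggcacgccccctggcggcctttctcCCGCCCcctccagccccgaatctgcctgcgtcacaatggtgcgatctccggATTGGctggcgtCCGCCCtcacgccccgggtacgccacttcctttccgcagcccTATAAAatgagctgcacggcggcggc

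The motifs searched, on both strands, were GATAA (the core of GATA factor sites), CCAAT (the CCAAT box), TGACGTCA (the cyclic AMP response element), CACGTG (an E-box), GGGCGG (the GC box) and TATAAA (the TATA box). Positions are counted back from the start site, with -1 the last base printed. The Tob1 window was 73.6% G and C and held 2 CCAAT boxes, 3 GC boxes and a TATAAA from -47 to -42. The Btg2 window, with 73.2% G and C, held the full element TGACGTCA from -166 to -159, 2 bases after a CCAAT box at -173 to -169. It also held a second CCAAT box and 3 GC boxes, 2 of which overlap by 1 base. The Btg1 window was 65.2% G and C, with TATAAA from -26 to -21, 1 CCAAT box and 2 GC boxes. None of these 3 windows held GATAA or CACGTG, which says only that these letters are not in the windows.

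Among 32817 RefSeq windows of this length, TGACGTCA was present in 1.55%, TATAAA in 12.4%, CCAAT in 33.8%, GGGCGG in 32.7%, GATAA in 22.6% and CACGTG in 6.02%, and the median G and C content was 52.4%. Tob1, which the test called, and Btg1, which it did not, both carried a TATAAA, and any relation of motifs to the change was not tested. These matches are descriptions of sequence, not binding sites. Of the 7 genes 6 had a window, and Cnot7 had none.

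Each library held 20584169 to 26462797 expected counts, so 3 counts correspond to 0.113 to 0.146 CPM, the counts of a gene per 1000000 counts of the library, far below the level of any of the 7 genes. Samd14, the target, was at 82.0, 82.1 and 83.8 CPM in the control libraries and at 41.9, 38.8 and 39.4 CPM in the shSamd14 libraries, so every library matched its label. Its log2 fold change was -1.05 (SE 0.062) and its adjusted p in edgeR 4.69e-07. The 8 progenitor markers summed to 1044 to 1224 CPM with the control hairpin and to 1046 to 1066 CPM with shSamd14. Of them edgeR called 0, with 4 at an unadjusted p under 0.05, 2 higher and 2 lower, limma-voom called 0 and DESeq2 2, Cd48 and Kit. Kit was lower after shSamd14 (657, 560 and 495 against 474, 465 and 422 CPM). Cd48 was higher (52.1, 51.4 and 43.7 against 61.0, 63.1 and 55.9 CPM), so the sums hide shifts in both directions. Over all 12670 tested genes edgeR called 2.58%, DESeq2 426 genes and limma-voom 311, and 1900 had an unadjusted p under 0.05 in edgeR. Tfrc, which encodes CD71, was at 782 to 979 CPM over the 6 libraries, so its mRNA was present although the cells were collected as CD71-negative. Hepatocyte markers summed to 26.7 to 50.7 CPM over the 6 libraries, with Serpina1a at 0 but Apoa1 at 19.28 to 46.18 CPM. Endothelial and stromal markers summed to 42.8 to 49.3 CPM with Col3a1 at 0. In that list Pdgfrb was at 12.34 to 17.92, Pecam1 at 10.63 to 16.3 and Col1a2 at 9.906 to 13.63 CPM. Lymphoid markers summed to 10.5 to 19.0 CPM, with Ms4a1 at 0 but Nkg7 at 7.004 to 13.97 CPM. A marker at 0 therefore does not show that its cell type was absent. Mast cell and basophil markers summed to 248.7 to 293.7 CPM with the control hairpin and 252 to 330 CPM with shSamd14. Tested were 4 of 8 hepatocyte, 5 of 8 endothelial and stromal and 3 of 9 lymphoid markers. Of the mast cell and basophil markers 6 of 8 were tested. In these 4 lists edgeR, DESeq2 and limma-voom called 0 markers. At an unadjusted p under 0.05 edgeR had 2 of the mast cell, 2 of the endothelial and 0 of the other markers.

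Over all 12670 tested genes edgeR called 1.32% higher and 1.26% lower, DESeq2 called 426 genes and limma-voom 311. In edgeR 1900 of them had an unadjusted p under 0.05. The megakaryocyte markers Pf4, Gp5 and Vwf were called higher in shSamd14 libraries by edgeR and limma-voom, and DESeq2 also called Ppbp. At an unadjusted p under 0.05 in edgeR 7 of the 8 markers were higher and 0 lower. The 8 markers of that list summed to 260 to 295 CPM in control libraries and 343 to 355 CPM after shSamd14. Of the 8 markers of maturing erythroid cells edgeR, DESeq2 and limma-voom each called only Car1, which was higher. At an unadjusted p under 0.05 in edgeR 3 of these 8 were higher and 1 lower, and their sum was 2060 to 2768 against 2810 to 3236 CPM. No member of either list was at 0. The part of these shifts in the results below was not tested. In bulk RNA, fewer cells that express a gene and less of its RNA per cell cannot be told apart.

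All 7 genes were abundant enough to be tested. A gene was called when its p from edgeR's quasi-likelihood test, adjusted over all 12670 tested genes, was under 0.05. Tob1, Tob2 and Btg2 were called lower in shSamd14 libraries, none of the 7 was called higher, and Btg1, Btg3, Cnot7 and Cnot8 were not called. DESeq2 called the same 3 genes and limma-voom Tob1 and Tob2, and at an unadjusted p under 0.05 in edgeR 3 were lower and 0 higher. Over all tested genes edgeR called 2.58%, 1.26% lower and 1.32% higher, and 1900 had an unadjusted p under 0.05. DESeq2 called 426 genes and limma-voom 311. The shSamd14 libraries lay wholly below the control libraries for 4 of the 7 genes, Cnot7 being the fourth, and wholly above for none; over all tested genes these shares were 10.2% and 10.5%. The median log2 fold change of the 7 genes was -0.12, beside 0.006 for all tested genes. Because the genes were chosen with this contrast in view, nothing is read from these counts against the background.

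**Figure D1:**
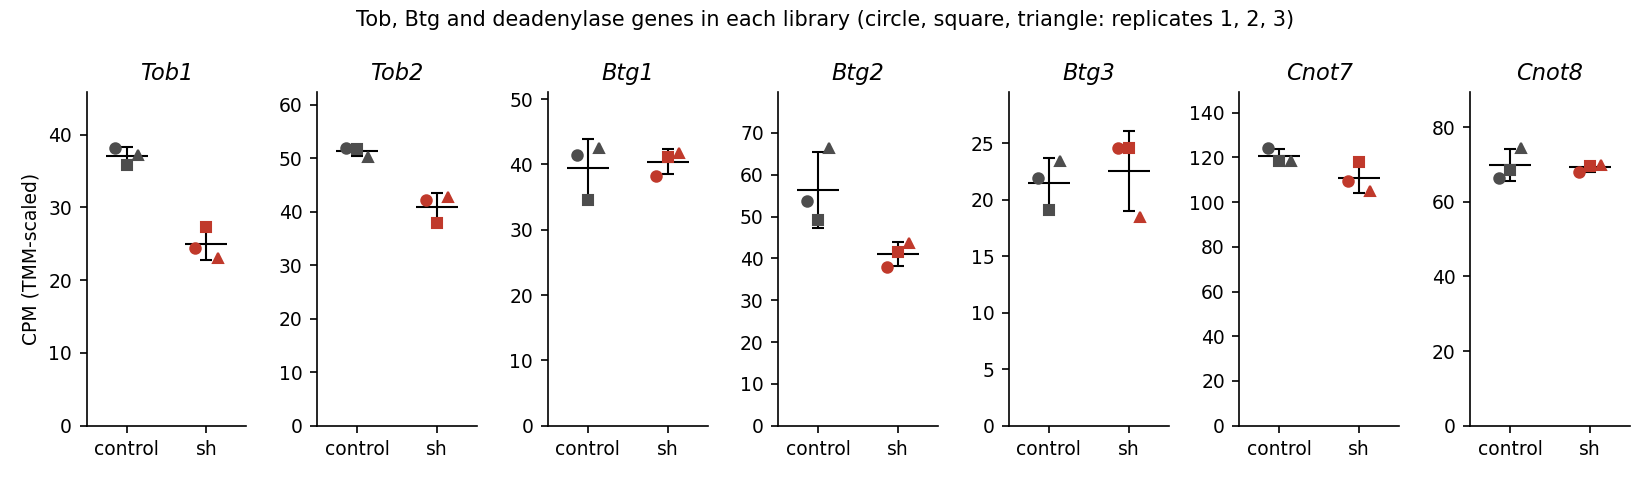
CPM, scaled by the trimmed mean of M values (TMM), of each of the 7 genes in the 3 control (grey) and 3 shSamd14 (red, sh) libraries, with the mean and SD of each group as a bar and whiskers. Tob1, Tob2, Btg2 and Cnot7 show no overlap between the groups, and Btg1, Btg3 and Cnot8 overlap.

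Tob1 (ENSMUSG00000037573, chr11:94211454-94215495, plus strand) encodes a family member with a long carboxy-terminal region that binds PABPC1. It was at 38.2, 35.8 and 37.2 CPM in control replicates 1 to 3 and at 24.4, 27.2 and 23.0 CPM in shSamd14 replicates 1 to 3. Every shSamd14 library was below every control library, and the gap between the groups was wider than the range of either group. The means were 37.1 ± 1.21 and 24.9 ± 2.14 CPM (SD, n = 3), a log2 fold change of -0.57 (SE 0.079) or 0.672 of the control level, with a 95% interval of 0.597 to 0.755. The adjusted p was 0.00126 in edgeR, rank 36 of the tested genes and rank 10 among those that were lower. Tob1 was called in 6 of 6 fits without 1 library, with log2 fold changes of -0.65 to -0.53.

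Tob2 (ENSMUSG00000048546, chr15:81848272-81858796, minus strand), the close paralog of Tob1, was at 52.0, 51.8 and 50.2 CPM with the control hairpin and 42.2, 37.8 and 42.7 CPM with shSamd14. The groups did not overlap, and the control values lay within 2 CPM of each other. The means were 51.3 ± 0.951 and 40.9 ± 2.66 CPM (SD, n = 3). The log2 fold change was -0.33 (SE 0.068), or 0.797 of control with a 95% interval of 0.720 to 0.883, and the adjusted p in edgeR's test was 0.019. The call depended on single libraries: the adjusted p was 0.0727 without control replicate 1, 0.0586 without control replicate 2 and 0.114 without shSamd14 replicate 2, where the log2 fold change was -0.28. On log2(TPM + 1) in limma, where TPM are transcripts of a gene per 1000000 transcripts, the adjusted p was 0.101.

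Tob1 and Tob2 coding sequences (1089 and 1038 bases) were 61.7% identical in the aligned GENCODE M21 transcripts, and their longest shared stretch was 17 bases. The longest stretch shared by any pair of the 7 genes was 22 bases, between Btg2 and Btg3. The read length, which decides whether such stretches matter, is not given in the sources used here. Tob2 overlaps the antisense gene Gm49476, which has no ID in the tables, and the use of strand is not given either.

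Btg2 (ENSMUSG00000020423, chr1:134075170-134079120, minus strand) is an immediate early gene that p53 can induce. It was at 53.6, 49.1 and 66.5 CPM in the controls and at 38.0, 41.4 and 43.7 CPM after knockdown. The groups did not overlap, but control replicate 3 stood above the other control libraries, and the lowest control library was 49.1 against a highest shSamd14 library of 43.7 CPM. The means were 56.4 ± 9.02 and 41.0 ± 2.85 CPM (SD, n = 3), a log2 fold change of -0.46 (SE 0.105) or 0.727 of control with a 95% interval of 0.620 to 0.854. The adjusted p was 0.0452 in edgeR. Fits without 1 library kept the direction in 6 of 6 and the call in 1 of 6. The adjusted p was 0.136 without control replicate 1, 0.0542 without control replicate 3, 0.113 without shSamd14 replicate 1, 0.157 without shSamd14 replicate 2 and 0.072 without shSamd14 replicate 3. It was also missed with upper-quartile factors (0.0646), in limma-voom (0.0528) and on log2(TPM + 1) in limma (0.0928).

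Neutrophil markers varied alongside Btg2 within the groups. Their sum was 3320, 3250 and 5243 CPM in control replicates 1 to 3 and 3583, 3770 and 5318 CPM in shSamd14 replicates 1 to 3, and in both groups replicate 3 was the highest for the markers and for Btg2. Between the groups the neutrophil sums overlapped, and of the 8 markers edgeR, DESeq2 and limma-voom each called 0, with 0 at an unadjusted p under 0.05 in edgeR. Macrophage markers summed to 271 to 532 CPM in control libraries and 363 to 560 CPM after shSamd14, with 5 of 8 tested. C1qa was at 0, and most of the sum came from Lyz2, at 240.8 to 479.1 and 329.6 to 512.3 CPM. Of the macrophage markers 0 were called by edgeR, DESeq2 or limma-voom, and 0 had an unadjusted p under 0.05. Over all tested genes edgeR called 2.58%, and 1900 of 12670 had an unadjusted p under 0.05. Without replicate 3 of both groups, a fit chosen after seeing the data, the log2 fold change of Btg2 was -0.37 and its adjusted p in edgeR 0.0203, while those of Tob1 were -0.52 and 0.00528 and those of Tob2 -0.38 and 0.018.

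**Figure D2:**
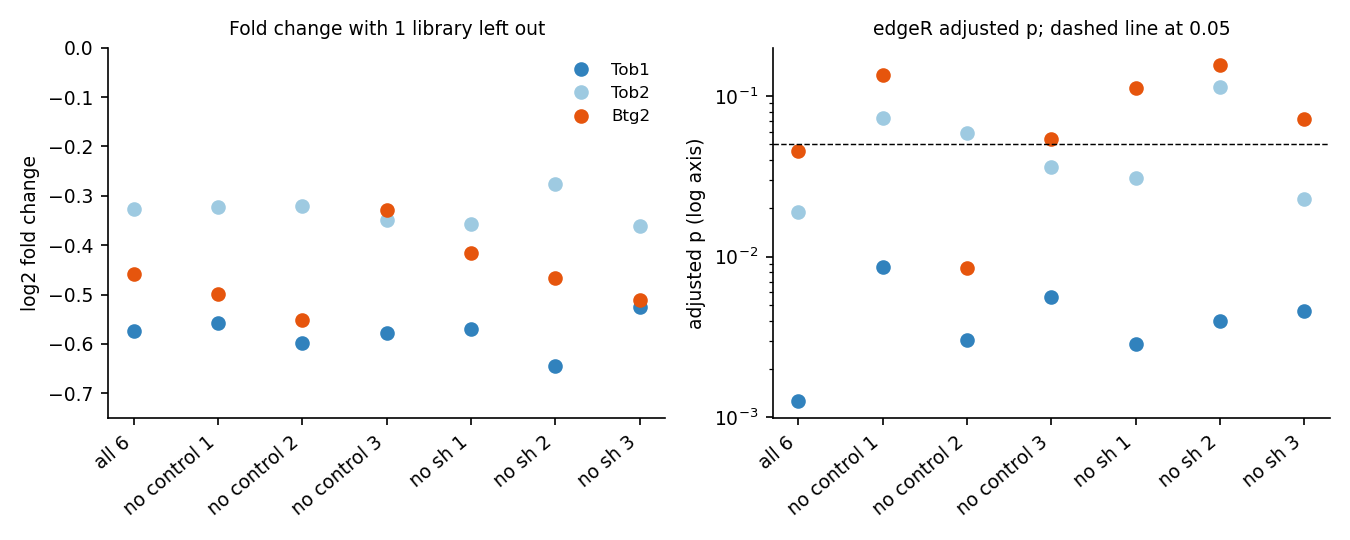
Log2 fold change (left) and edgeR adjusted p on a log axis (right) of Tob1, Tob2 and Btg2 with all 6 libraries and with each library left out in turn. Tob1 stays below an adjusted p of 0.05 in all 6 fits without 1 library, Tob2 in 3 and Btg2 in 1.

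Btg1 (ENSMUSG00000036478, chr10:96617006-96622809, plus strand) is the nearest relative of Btg2, with coding sequences 64.3% identical, and is frequently mutated in B-cell lymphoma. It was at 41.4, 34.6 and 42.6 CPM with the control hairpin and 38.3, 41.2 and 41.8 CPM with shSamd14, so the shSamd14 values fell inside the control range. The log2 fold change was 0.03 (SE 0.083) and the adjusted p in edgeR 0.894. The 95% interval of Btg1 was 0.905 to 1.16 of control, beside an estimate of 0.727 for Btg2. Btg2 was chosen as lower in these same libraries, and the difference between these genes was not tested. The pseudogenes Btg1-ps1 and Btg1-ps2 share stretches of up to 38 bases with Btg1 and have no ID in the tables, so reads from them could have been counted as Btg1.

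Btg3 (ENSMUSG00000022863, chr16:78332637-78377192, minus strand) encodes a protein known to bind E2F1 and CHK1. It was at 21.9, 19.1 and 23.4 CPM in the controls and 24.6, 24.6 and 18.5 CPM after knockdown, with shSamd14 replicate 3 below every control library. Its mean CPM was the lowest of the 7 genes in both groups, although in shSamd14 replicate 1 Tob1 was slightly lower. Its log2 fold change was 0.07 (SE 0.117), its interval 0.881 to 1.25 of control and its adjusted p in edgeR 0.833. The tables list 2 transcripts for Btg3, and its abundance-weighted length varied from 1236 to 1340 bases in control and 1239 to 1353 bases in shSamd14 libraries, so the isoform mix varied within both groups over a similar range. Tob1, Tob2, Btg1 and Btg2 have 1 listed transcript each. Btg4, the remaining family member, was at 0 in every library and could not be tested.

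Cnot7 (ENSMUSG00000031601, chr8:40492540-40515847, minus strand) was at 124, 119 and 118 CPM in control libraries and 109, 118 and 105 CPM after shSamd14. All shSamd14 libraries were lower, but shSamd14 replicate 2 (117.8 CPM) came within 1 CPM of control replicate 3 (118.3 CPM). The log2 fold change was -0.12 (SE 0.062), or 0.919 of control with a 95% interval of 0.839 to 1.01, and the adjusted p in edgeR was 0.381. Cnot7 overlaps Vps37a and Zdhhc2 on the other strand. Vps37a was called higher (log2 fold change 0.61, adjusted p in edgeR 0.000585) at up to 9.61 TPM, and how far overlapping reads enter the count of Cnot7 was not tested.

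Cnot8 (ENSMUSG00000020515, chr11:58104153-58118594, plus strand), 70.4% identical to Cnot7 in coding sequence, was at 66.3, 68.5 and 74.5 CPM with the control hairpin and 67.9, 69.7 and 70.0 CPM with shSamd14. The shSamd14 values lay inside the control range. Its log2 fold change was -0.01 (SE 0.064), its interval 0.902 to 1.09 of control and its adjusted p in edgeR 0.954.

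**Figure D3:**
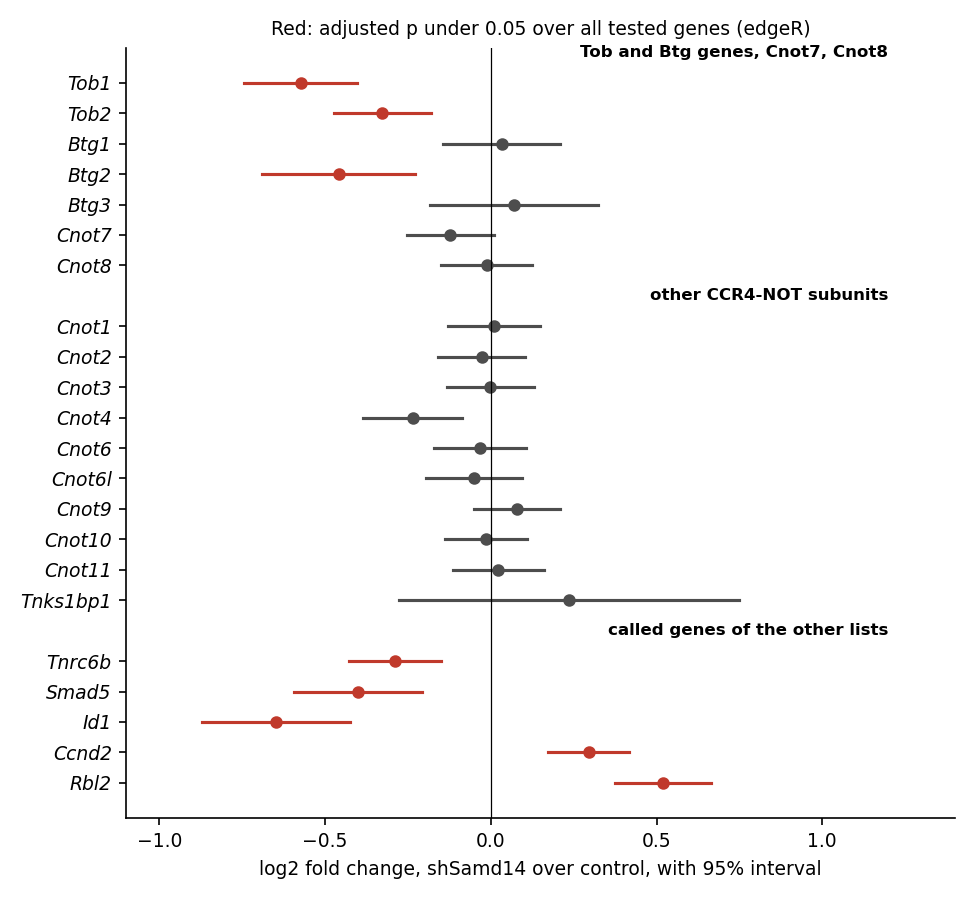
Log2 fold change, shSamd14 over control, with its 95% interval for the 7 genes, the other CCR4-NOT subunits and the called genes of the other lists. Called genes are red: Tob1, Tob2 and Btg2 lie below 0, and no other CCR4-NOT subunit is called.

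Levels of different genes were compared per length, in TPM. In control libraries the order of mean TPM was Cnot7 (77.1 ± 4.63), Cnot8 (58.1 ± 2.41), Btg2 (34.3 ± 5.23), Btg3 (28.7 ± 2.66), Tob1 (27.2 ± 1.66), Tob2 (21.3 ± 0.949) and Btg1 (13.0 ± 1.61; all SD, n = 3). The ranges of Btg2 and Btg3 overlapped, as did those of Btg3 and Tob1, so these neighbours were not separated by their spread. Cnot7 was above 84.0% of the tested genes and Btg1 above 43.2%, so the deadenylases were high and the adaptor genes mid-range transcripts of these cells. In shSamd14 libraries the order was Cnot7 (71.5 TPM), Cnot8 (58.2), Btg3 (30.0), Btg2 (25.2), Tob1 (18.4), Tob2 (17.1) and Btg1 (13.4). Btg3 and Btg2 had changed places, with overlapping ranges, and the ranges of Tob1 and Tob2 now overlapped as well.

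The 5 Tob and Btg genes together gave 128, 113 and 132 TPM in control and 103, 108 and 102 TPM in shSamd14 libraries, means of 124.5 ± 9.91 and 104.1 ± 3.11 TPM (SD, n = 3). The sum of Cnot7 and Cnot8 was 140, 131 and 135 TPM against 124, 135 and 130 TPM, with overlapping groups. The family sum per unit of deadenylase transcript was 0.917, 0.868 and 0.978 in control and 0.831, 0.796 and 0.784 in shSamd14 libraries. These sums contain the called genes and so repeat their difference on another scale.

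Within the family sum the share of Tob1 was 21.9% in control and 17.6% in shSamd14 libraries, and that of Btg2 27.4% and 24.2%. The share of Btg1, the least abundant member, was 10.4% and 12.9%, and that of Btg3 23.1% and 28.8%. Tob2 held 17.2% and 16.5%. The ratio of Btg2 to Btg1 was 2.39, 2.62 and 2.88 in control and 1.83, 1.86 and 1.93 in shSamd14 libraries, without overlap. The ratio of Tob1 to Tob2 was 1.30, 1.22 and 1.31 against 1.02, 1.27 and 0.954, where shSamd14 replicate 2 lay among the control values. For Cnot7 to Cnot8 it was 1.44, 1.33 and 1.22 against 1.23, 1.31 and 1.15, with overlapping groups. Tob1 and Btg2 were chosen as lower in these libraries, so shares and ratios that contain them repeat that difference on another scale.

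**Figure D4:**
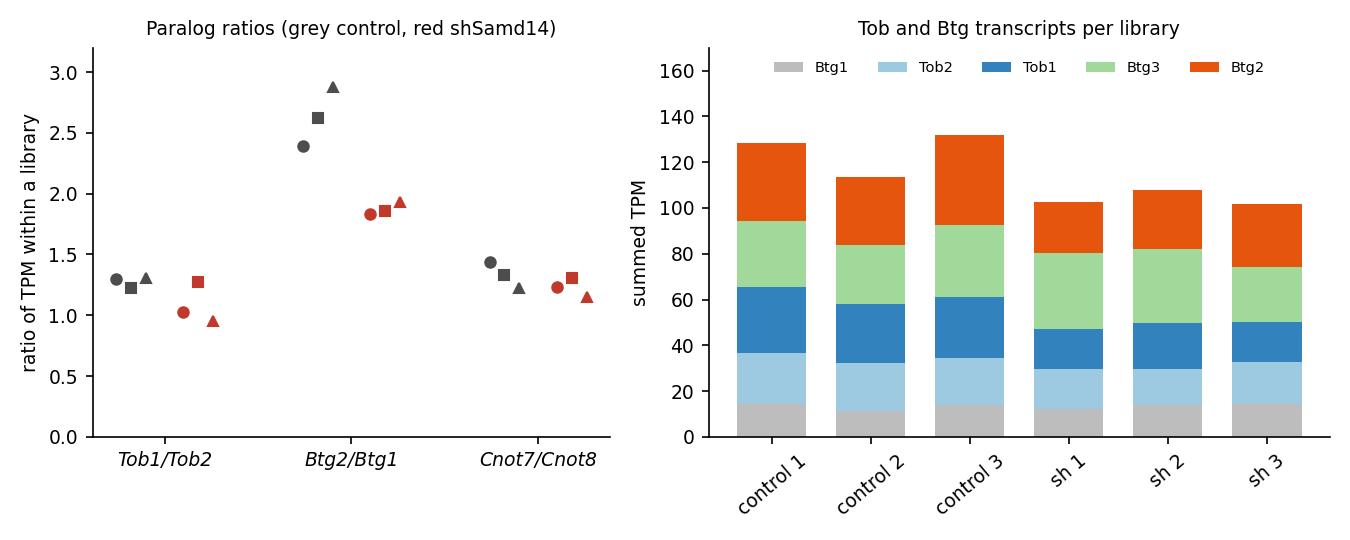
Ratio of TPM between paralogs in each library (left; circle, square and triangle are replicates 1, 2 and 3) and TPM of the 5 Tob and Btg genes stacked per library (right). The ratio of Btg2 to Btg1 does not overlap between the groups, and those of Tob1 to Tob2 and Cnot7 to Cnot8 do. Btg2 was already known to be lower, so its ratio repeats that difference. The stacked sum is 113 to 132 TPM in control and 102 to 108 TPM in shSamd14 libraries.

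Genes with the pattern most like Tob1 were sought by Pearson's r of log2 CPM over the 6 libraries, among 8484 genes with a mean of 10 CPM or more. They were Echdc1 (r = 0.9969), Cdc40 (0.9963), Plekha8 (0.9962), Pter (0.9952) and Sh2d4a (0.9931). Sh2d4a, on chromosome 8, was at 29.0, 26.6 and 28.2 CPM in the controls and 14.6, 18.6 and 12.5 CPM after knockdown, and of these 5 it alone was called (log2 fold change -0.88, adjusted p in edgeR 0.00227). For Btg2 they were Gla (0.9916), Snx4 (0.9888), Ptgr1 (0.9847), Scp2 (0.9847) and Pcyt1a (0.9801), of which Ptgr1 alone was called (-0.36, adjusted p 0.0188). All genes share the same 6 libraries, so these values describe likeness and no more. By rank, 40 genes tie with the highest Spearman rho for Tob1, only 2 of the 5 among them, and 21 for Btg2, 4 of the 5 among them.

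Tob1 and Samd14 lie on the same chromosome, with 794383 bases and 23 gene IDs between them. Over all tested genes edgeR called 2.58%, and 1900 of 12670 had an unadjusted p under 0.05. Of the IDs between Tob1 and Samd14, 11 were tested and edgeR, DESeq2 and limma-voom each called 0. In edgeR 1 of the 11 had an unadjusted p under 0.05. Nothing is read from these counts against the background. The log2 fold changes of the 11 genes were -0.07 to 0.85, and the lowest adjusted p in edgeR was 0.25. The highest values came from genes of low level, Abcc3 (0.85, at 0.43 to 1.07 CPM) and Wfikkn2 (0.56, at 0.37 to 0.70 CPM).

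An earlier search of these same data found words of 7 bases in the 3′ UTRs: CAAGTGT and also AAGTGTA in genes that were lower in shSamd14 libraries, CTGATTA and also TGATTAA in genes that were higher. In the annotated UTRs Tob2 held CAAGTGT once and AAGTGTA once, at separate places, and Btg1 held TGATTAA once. Tob1 (767 bases of UTR), Btg2 (2199 bases), Btg3, Cnot7 and Cnot8 held none of the 4 words. Over 11748 UTRs CAAGTGT was present in 14.4%, AAGTGTA in 11.3%, TGATTAA in 9.73% and CTGATTA in 7.14%, and in 1771 UTRs of a length like that of Tob2 the first 2 were in 23.2% and 16.8%. TGATTAA was in 22.0% of UTRs of a length like that of Btg1. Samd14 held CAAGTGT once. The words came from this same contrast, so their presence in a called gene such as Tob2 or Samd14 supports nothing. The AU-rich core TATTTAT was in the UTRs of Tob2, Btg2, Btg3, Cnot7 and Cnot8, and the Pumilio element TGTANATA, written with N for any base, in those of Btg1, Cnot7 and Cnot8, against 29.3% and 25.8% of all UTRs. In UTRs of like length TATTTAT was in 44.8% for Tob2, 41.4% for Btg2, 12.4% for Btg3, 32.4% for Cnot7 and 24.0% for Cnot8. The Pumilio element was in 52.3% for Btg1, 27.9% for Cnot7 and 20.1% for Cnot8.

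The rest of the machinery that the family works with was read from 6 further lists. As background to their counts, edgeR called 2.58% of all 12670 tested genes, and 1900 had an unadjusted p under 0.05. DESeq2 called 426 genes and limma-voom 311. None of the 10 other CCR4-NOT subunits was called by edgeR, DESeq2 or limma-voom, 1 had an unadjusted p under 0.05 in edgeR, and their median log2 fold change was -0.01. Cnot4, a ubiquitin ligase that joins the complex, had the smallest p, with 40.3, 37.0 and 37.3 CPM in control libraries against 31.7, 33.0 and 32.6 CPM with shSamd14, a log2 fold change of -0.24 (SE 0.070) and an adjusted p in edgeR of 0.0988. Its groups did not overlap. The other deadenylase subunits, named for their role and not by the rule for named genes, were at 287 ± 15.9 and 280 ± 15.8 CPM for Cnot6 and at 101 ± 4.27 and 97.2 ± 7.40 CPM for Cnot6l.

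None of 16 genes for poly(A) tail binding, other deadenylases and decapping was called by edgeR, DESeq2 or limma-voom, 0 had an unadjusted p under 0.05 in edgeR, and their log2 fold changes ran from -0.15 to 0.11 with a median of 0.005. Pan3, a subunit of another deadenylase, had the smallest p (log2 fold change -0.15, adjusted p in edgeR 0.353). Pabpc1, named for its binding to Tob proteins, was at 2319 ± 41.9 CPM in control libraries and 2303 ± 75.2 CPM after shSamd14.

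Of 18 RNA-binding proteins that recruit CCR4-NOT, 14 were tested and 1 was called, Tnrc6b, with a median of -0.06 for the list. At an unadjusted p under 0.05 in edgeR 1 was higher and 3 lower, beside 1900 of all 12670 tested genes. Tnrc6b was the only call of limma-voom. DESeq2 also called Cpeb4, which was higher (log2 fold change in edgeR 0.39, adjusted p 0.16), and Rc3h2, which was lower (-0.34, adjusted p 0.0754). Samd4b matched no ID, and Cpeb1, Nanos3 and Samd4 were too low to test. Tnrc6b links microRNA-bound Argonaute to the complex. It was at 150, 139 and 139 CPM with the control hairpin and 110, 114 and 126 CPM with shSamd14, all below the control libraries. The log2 fold change was -0.29 (SE 0.066) and the adjusted p in edgeR 0.0283. It missed the threshold without control replicate 1 (0.135), control replicate 2 (0.05 after rounding), shSamd14 replicate 1 (0.104) or shSamd14 replicate 2 (0.14), and on log2(TPM + 1) in limma (0.256).

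The next list held 15 binding partners of the family and genes of the BMP-Smad pathway, on which Tob1 is known as a repressor. Of these 10 were tested and 2 were called, both lower, with a median of -0.11. DESeq2 and limma-voom called the same 2 genes. At an unadjusted p under 0.05 in edgeR 0 were higher and 2 lower, beside 1900 of all 12670 tested genes. Prmt1 matched no ID, and Hoxb9, Smad9, Smad6 and Id3 were too low to test. Id1, a direct transcriptional target of BMP signals, was at 19.3, 20.5 and 19.3 CPM in the controls and 14.6, 11.7 and 11.4 CPM after knockdown, so every shSamd14 library was lower. Its log2 fold change was -0.65 (SE 0.105), its adjusted p in edgeR 0.00421, and it was called in 6 of 6 fits without 1 library. Smad5, which carries BMP signals to the nucleus, was at 33.8, 31.6 and 33.6 CPM in control libraries and 22.4, 23.9 and 28.6 CPM after shSamd14, again without overlap. Its log2 fold change was -0.40 (SE 0.091) and its adjusted p in edgeR 0.0282. For Smad5 the adjusted p was 0.118 without control replicate 1, 0.0724 without control replicate 3, 0.0878 without shSamd14 replicate 1, 0.145 without shSamd14 replicate 2 and 0.066 with effective-length offsets. In limma it was 0.252 on log2(TPM + 1) and 0.254 on log2(TPM + 0.1), where the log2 fold changes were -0.29 and -0.33.

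None of 10 regulators known to act upstream of Tob and Btg genes was called by edgeR, DESeq2 or limma-voom, 0 had an unadjusted p under 0.05 in edgeR, and the median was 0.02. Foxo1, which can induce family members, had the smallest p, at 5.58 ± 0.263 and 6.42 ± 0.998 CPM (SD, n = 3; log2 fold change 0.20, adjusted p in edgeR 0.568).

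Of 14 G1 cell cycle genes 2 were called, both higher, with a median of -0.01 for the list. At an unadjusted p under 0.05 in edgeR 3 were higher and 3 lower, beside 1900 of all 12670 tested genes in either direction. DESeq2 also called Ccne1, which was higher (log2 fold change in edgeR 0.25, adjusted p 0.0538), and Cdk6, which was lower (-0.24, adjusted p 0.0653). Rbl2 encodes p130, a retinoblastoma-related protein of resting cells. It was at 60.1, 58.3 and 61.2 CPM with the control hairpin and 79.2, 86.3 and 91.9 CPM with shSamd14, without overlap, a log2 fold change of 0.52 (SE 0.067) with an adjusted p in edgeR of 0.000827. The call held in 6 of 6 fits without 1 library. Ccnd2, which encodes the G1 cyclin D2, was at 193, 193 and 182 CPM in the controls and 232, 234 and 232 CPM after knockdown. Its log2 fold change was 0.30 (SE 0.057) and its adjusted p in edgeR 0.0118, but 0.0519 without control replicate 3 and 0.0719 without shSamd14 replicate 2. As background, p130 restrains and cyclin D2 promotes the step from G1 to S phase.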

How the data were processed

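Each library has a gene table that, per the file headers, comes from RSEM and gives expected counts, TPM, FPKM and lengths as the authors deposited them. An expected count shares a read that maps to several genes between them. Per the submitters' processing notes, CASAVA 1.8.2, Bowtie 1.0.1, RSEM 1.2.15 and mm10 were used; for strand use, trimming and the annotation release no source used here gives a setting. FPKM, as deposited by the authors, was used only as an alternative to TPM for levels.

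Symbols and coordinates come from GENCODE M21 (GRCm38, the assembly of mm10), which names 23580 of the 24376 IDs; 796 had no symbol, and Prmt1 and Samd4b, which matched no ID, were not analysed here. Promoters come from RefSeq (GRCm38.p6).

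Rounded expected counts were tested with edgeR 4.0.16 in R 4.3.3: filterByExpr (minimum count 10, total 15) left 12670 genes, TMM factors were 0.986 to 1.021, and the robust quasi-likelihood test was two-sided and its p-values were adjusted by Benjamini-Hochberg over every tested gene. The biological coefficient of variation was 7.52%. Intervals are at 95% and are from the fit. Libraries of a group differed by a chi-square of 5.73 to 12.2 per gene, more than sampling noise gives, and none was merged.

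The 7 genes and the lists were chosen with earlier results of these data known. Named genes are all 7, Samd14, in each list the called genes or else the one with the smallest p, and the 5 genes most like Tob1 and Btg2. Alternatives were RLE and upper-quartile factors, other filters, a replicate block, DESeq2 1.42.0, limma 3.58.1 (voom, and log2 of TPM plus 1 or 0.1), length offsets, a stricter threshold and leaving out libraries.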

Additional observations from a re-analysis of the deposited data

How the results depend on the processing

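Of all 12670 tested genes edgeR called 327, of which 167 were higher and 160 lower, and 1900 had an unadjusted p under 0.05. Without the filter on low counts 488 were called, 227 higher and 261 lower. DESeq2 called 426 genes, 188 higher and 238 lower, and limma-voom 311, 158 higher and 153 lower. limma on log2(TPM + 1) called 168 genes, 106 higher and 62 lower, and limma on log2(TPM + 0.1) 170, 106 higher and 64 lower; of the 7 genes each called 1, Tob1. At an adjusted p under 0.01 edgeR called 104 genes, 61 higher and 43 lower, with 1 of the 7. With 1 library left out, 128 to 283 genes were called, 63 to 133 higher and 65 to 163 lower, and of the 7 genes 1 to 2, all lower. Fewer libraries leave fewer degrees of freedom, and the part of this in the lower counts was not tested.

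With the replicate number as a block, 682 genes were called, 322 higher and 360 lower, and the adjusted p was 3.56e-05 for Tob1, 0.00592 for Tob2 and 0.000389 for Btg2. Deviations of same-numbered libraries from their group means correlated at -0.077, 0.199 and 0.344. The value of replicate 3 was the highest of all pairs, and replicate 3 of both groups was also the highest for neutrophil markers. Not every library correlated best with its own number: control replicate 2 was at 0.223 with shSamd14 replicate 1. The labels state no pairing, so whether same-numbered libraries were handled together cannot be told.

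Tob1 kept its call under every alternative run, DESeq2 and limma included. Genes near 0 changed sign: with 1 library left out the log2 fold change ran from -0.0552 (without control replicate 2) to 0.0848 for Btg1, from -0.01 (without control replicate 2) to 0.191 for Btg3, which was at -0.0054 without shSamd14 replicate 1, and from -0.052 to 0.0317 (without control replicate 3) for Cnot8. Cnot8 was also at 0.00275 and 0.00279 in limma on TPM (pseudocount 1 and 0.1) and at 0.0261 without replicate 3 of both groups. Without replicate 3 of both groups, a fit chosen after seeing the data, 369 genes and 3 of the 7 were called. With the strand of the gene alone, 5 motif matches were found in the Tob1 promoter and 1 in that of Btg1. The cause of these changes was not tested. Outliers were not tested in groups of 3.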
